A study of Mus musculus with 24 samples.

Results

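Large intergenic non-coding RNA (lincRNA) genes were examined in ribo-depleted RNA-Seq of differentiated CCE cells and fetal head (FH). The members were the autosomal genes that the GENCODE M1 annotation of the mouse mm9 genome types as lincRNA and that overlap no protein-coding gene. A set of well-known non-coding genes was left out: Airn, H19, Meg3, Rian, Mirg, Malat1, Neat1, Miat, Rmst, Dlx6os1, Gas5 and every gene whose name starts with Snhg. Of 1273 annotated lincRNA genes, 1232 were autosomal, 496 of these overlapped no coding gene and 486 remained, out of 32044 annotated genes on the autosomes and X that are not pseudogenes.

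CCE is a feeder-independent mouse embryonic stem cell line of the 129/SvEv strain, grown here for 5 days without LIF in 0.266 µM retinoic acid. FH is the whole head of FVB/N fetuses at 14.5 days postcoitum, a mixture of many cell types dominated by brain. Total RNA was depleted of ribosomal RNA with RiboMinus (4 CCE and 3 FH cDNA preparations, fragmented by RNA-hydrolysis or by cDNA-shearing and each sequenced in Vienna-IMP and Nijmegen, 14 libraries) or with Ribo-Zero (1 library per tissue). All had 1 round of depletion except FH2 hydrolysed, which had 2. The CCE preparations are technical replicates, and the hydrolysed and sheared preparations of one number (CCE1, CCE2, FH1) were made from the same depleted RNA, so the 4 and 3 preparations stand for 2 depleted RNA samples per tissue. Nothing states that the FH preparations came from separate animals. Every p-value below therefore measures only the spread between preparations. With both fragmentations summed per RNA (2 against 2), a fit chosen after seeing the data, all 73 calls described below held, in a fit that called 68.3% of all genes (50.05% in the one used below). The numbers of the hydrolysed libraries may be crossed at one location, in which case the hydrolysed preparations and these sums mix RNA samples. With the numbers crossed at Nijmegen, 71 of the 73 calls held. Tissue cannot be told apart from strain or from growth in culture. In bulk RNA of this kind, fewer cells of a type and less RNA per cell cannot be told apart.

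A lincRNA is transcribed, spliced and usually polyadenylated like a messenger RNA but has no recognised open reading frame. Known examples act on chromatin, on transcription of a nearby gene or as the primary transcript from which a microRNA hairpin is cut, and many are expressed in few tissues, brain among them. Many start next to the promoter of a coding gene that is transcribed away from them, an arrangement called head to head.

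Sequences are shown first for 6 mature microRNAs whose hairpins lie within lincRNA genes that differed between the tissues. Those of Mir3093 in Gm3764, Mir6368 in 2610307P16Rik and Mir7072 in Nlrc5 are not shown. Mir6368 and Mir7072 were placed by their RefSeq hairpins and are not in the annotation's count of hosts below. miR-124 of A930011O12Rik is also not shown, because its hairpin was not found by the search with RefSeq hairpins. The sequences shown are mature sequences of RefSeq (GRCm38.p6), 5′ to 3′, with the seed (bases 2 to 8, which pairs with target mRNAs) in capitals. The miR-9 sequences come from Mir9-1 in an intron of Gm3764 (mm9 chr3:88019520-88019608), Mir9-2 in an exon of C130071C03Rik (chr13:83878419-83878490) and Mir9-3 in an intron of AI854517 (chr7:86650150-86650239), all on the strand of the lincRNA gene. Mir205 lies in an exon of 4631405K08Rik (chr1:195333657-195333724), Mir29b-2 and Mir29c in exons of A330023F24Rik (chr1:196863234-196863314 and chr1:196863741-196863828) and Mir344-2 in an intron of A330076H08Rik (chr7:69084913-69084992). The miR-29b and miR-29c sequences share one seed, and all 3 hairpins that give miR-9-5p in the RefSeq table lie in members.
miR-9-5p: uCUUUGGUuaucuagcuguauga
miR-9-3p: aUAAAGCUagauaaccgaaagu
miR-205-5p: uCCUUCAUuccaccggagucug
miR-29b-3p: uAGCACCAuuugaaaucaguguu
miR-29c-3p: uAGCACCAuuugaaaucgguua
miR-344-3p: uGAUCUAGccaaagccugacugu

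The second set of sequences are the gaps between lincRNA genes and the coding genes that start head to head with them, for 4 pairs in which both genes were higher in FH. Each is the plus strand of mm9, with the annotated transcribed 30 bases at either end in capitals and the gap in lower case. The gaps are 34 bases at Gm14204 and Slc32a1 (chr2:158436430-158436523), 137 at 2610316D01Rik and Pcdh10 (chr3:45182153-45182349), 47 at 4930570G19Rik and Negr1 (chr3:156224681-156224787) and 159 at Gm16936 and Acan (chr7:86198180-86198398). They are rich in G and C, from 62% (Pcdh10) to 74.5% (Negr1), and hold between 3 (Slc32a1) and 14 (Pcdh10) CpG dinucleotides.
Gm14204 and Slc32a1: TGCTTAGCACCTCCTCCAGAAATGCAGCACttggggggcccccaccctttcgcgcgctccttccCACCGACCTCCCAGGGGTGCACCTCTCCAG
2610316D01Rik and Pcdh10: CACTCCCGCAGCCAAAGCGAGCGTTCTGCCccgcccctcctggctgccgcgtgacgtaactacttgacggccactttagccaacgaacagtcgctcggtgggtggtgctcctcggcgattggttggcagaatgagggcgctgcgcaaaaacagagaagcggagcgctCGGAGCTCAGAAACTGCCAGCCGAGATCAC
4930570G19Rik and Negr1: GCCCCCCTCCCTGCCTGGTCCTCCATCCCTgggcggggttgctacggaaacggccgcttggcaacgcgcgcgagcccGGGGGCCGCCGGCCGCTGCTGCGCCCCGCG
Gm16936 and Acan: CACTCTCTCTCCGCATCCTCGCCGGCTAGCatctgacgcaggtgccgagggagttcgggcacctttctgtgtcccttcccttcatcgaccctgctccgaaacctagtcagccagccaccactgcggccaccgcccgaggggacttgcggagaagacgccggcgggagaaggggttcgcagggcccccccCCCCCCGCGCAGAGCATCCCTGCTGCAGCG

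The start regions of the other members could be compared over a window from 250 bases before to 50 bases after each annotated start. A CpG observed over expected ratio above 0.6 was found in 88.1% of the 201 lincRNA genes that lay head to head within 1 kb of a coding gene, in 30.5% of the 285 others and in 45.2% of 22345 protein-coding genes. The letters GGGCGG, on either strand, occurred in 78.6%, 31.6% and 43.5% of these windows. TATAAA, on either strand, occurred in 3.48%, 8.77% and 13.4%, and CCAAT, on either strand, in 38.3%, 39.7% and 37.9%. Whether the motifs overlap one another was not examined. Windows of head to head genes include part of the start region of the coding partner, so these shares describe the shared region.

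As gene models, the 486 lincRNA genes were shorter and simpler than coding genes. Their exons summed to a median of 1768 bases (range 193 to 12316) against 2736 for 22350 coding genes, with a median of 3 exons against 7, and all but 1 of the members had more than 1 exon. GT-AG ends were found on 93.9% of their 1506 introns and on 97.4% of 228590 coding introns. By symbol or synonym on the same chromosome, 328 members matched a RefSeq gene, in some cases the same one. Of these members 299 are classed as lncRNA and 13 as protein-coding, 1810058I24Rik and Gm11818 among the latter.

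Libraries were compared on tags, the uniquely aligned reads, assigned to a gene by the tag midpoint without regard to strand, since the protocol does not mark it. The 14 RiboMinus libraries held 920424 to 2473448 tags outside the mitochondrial chromosome, pooled to 13049762 for CCE and 9924914 for FH, and the Ribo-Zero libraries 26345467 and 46226046. Marker lists separated the tissues: 9 of 10 primitive endoderm genes fell in FH (summed level 302 to 398 RPKM in CCE preparations and 91.9 to 101.5 in FH), while 9 of 9 measured neural genes (43.5 to 51.9 against 449 to 652) and 13 of 13 markers of blood, lens, muscle, cartilage, epidermis and endothelium (5.79 to 8.31 against 596 to 814) rose. The 3 pluripotency genes summed to 30.7 to 33.4 RPKM in CCE and to at most 0.103 in FH, where Pou5f1, Zfp42 and Gata4 had no tag, and Fabp7 had none in CCE. The part of these cell mixtures in any lincRNA difference below was not tested.

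Few lincRNA genes were abundant in either tissue. With at least 10 tags taken as detection, 135 of 486 (27.8%) were detected in pooled RiboMinus CCE and 144 (29.6%) in FH, 99 in both, against 60.4% and 64.1% of coding genes. The deeper Ribo-Zero libraries detected 205 and 265. Of 78 members without a tag in any RiboMinus library, 51 had a tag in a Ribo-Zero library, and 27 had none in all 16 libraries. A count of 0 in the RiboMinus pools allows up to 3 tags, which for a member of median exon length is 0.13 RPKM in CCE and 0.171 in FH, so weak expression of these genes was not detectable at this depth. Such limits cover counting error only.

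The lincRNA genes took a larger share of the FH tags than of the CCE tags. Their exons held 0.0779 to 0.103% of the tags of the 8 CCE RiboMinus libraries and 0.163 to 0.215% of the 6 FH libraries, without overlap. Within hydrolysed libraries the ranges were 0.0965 to 0.103% and 0.186 to 0.215%, and within sheared libraries 0.0779 to 0.0861% and 0.163 to 0.167%. Ribo-Zero gave 0.108% and 0.139%. Gm17446, whose reads cannot be assigned to a lincRNA gene, held 2.44% of the lincRNA tags in CCE and 20.85% in FH. Over the 442 members that share no exon base with another gene the ranges were 0.0628 to 0.0849% and 0.0985 to 0.1185%, and Ribo-Zero gave 0.0865% and 0.0962%. A few genes carried much of this share, since the 5 with most tags held 36.9% of the lincRNA tags in CCE and 45.2% in FH. Among members detected by RiboMinus the median level was 0.949 RPKM (tags per kilobase of exon, scaled to a library total of 1000000 tags) in CCE and 1.57 in FH, against 5.47 and 4.59 for detected coding genes. By Ribo-Zero the order was reversed, at 0.727 in CCE and 0.532 in FH (coding genes 5.12 and 3.41). The 10 tags of detection stand for a different RPKM in each pool. Only 9 members in CCE and 10 in FH exceeded 10 RPKM by RiboMinus.

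To ask which lincRNA genes differ between the tissues, the tags of the 7 RiboMinus preparations were fitted with limma voom over all 15784 genes with at least 20 tags. Among the 150 lincRNA genes that reached 20 tags, 57 (38.0%) were higher in FH at an adjusted p under 0.05, against 23.5% of all genes tested, and 16 (10.7%) were lower, against 26.6% of all genes. The other 77 did not pass, and 336 members held too few tags to be tested. The median log2 difference (FH minus CCE) was 0.69 over the tested members and −0.18 over all genes. In 62 members all FH preparations lay above all CCE preparations, compared with 23.9% of all genes, and in 20 members all lay below, compared with 28% of all genes. Differences past 4-fold were fitted for 37 of the higher members (24.7% of those tested, against 14.4% of all genes) and 11 of the lower (7.33%, against 5.63%).

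The balance between the directions depends on the scaling. With median-of-ratios size factors in place of total tags, the median of all genes moved from −0.18 to 0.07, the calls over all genes from 3704 higher and 4196 lower to 4328 and 3003 (46.9% and 59.0% higher), and those over lincRNA genes from 57 and 16 to 65 and 13. On either scale the median of the lincRNA genes lay above the median of all genes. A gene near the minimum of 20 tags could reach it through 1 tissue alone. The counts therefore apply to the tested members and not to all 486. Without this minimum the higher shares were similar, with 85 of 408 members and 4418 of 21657 genes. The lower counts were then 25 and 4124.

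**Figure D1:**
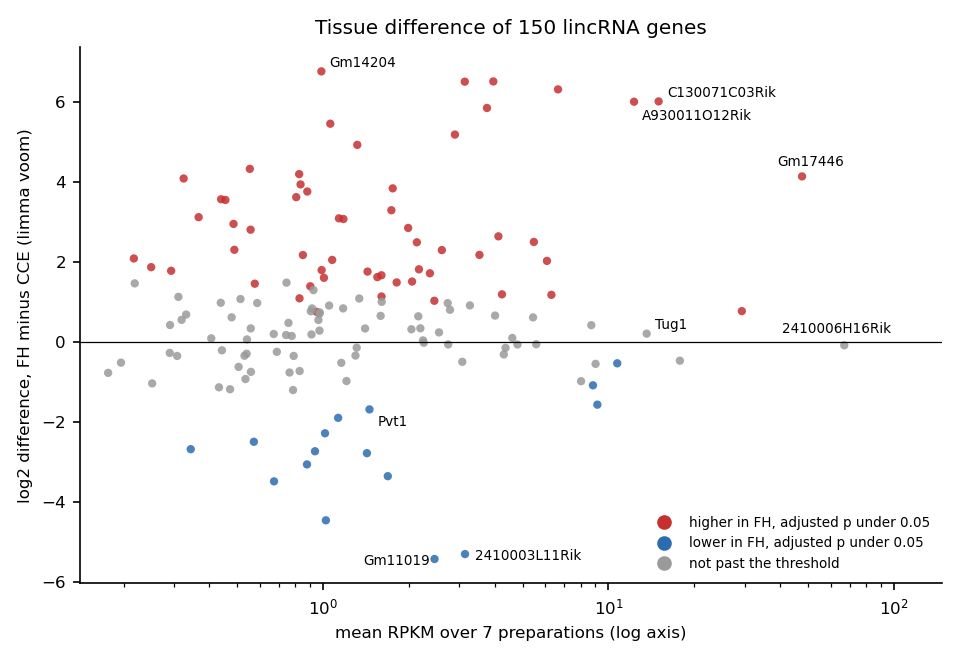
Tissue difference of the 150 tested lincRNA genes. The horizontal axis is the mean RPKM over the 7 RiboMinus preparations on a log axis and the vertical axis the log2 difference, FH minus CCE, fitted with limma voom; each point is a gene. Genes called higher in FH lie at low and high levels alike, and Gm14204 at 6.75 and Gm11019 at −5.41 mark the ends.

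MicroRNA host genes were among the largest differences. Of 16 members whose span holds an annotated microRNA, 10 were tested, 7 rose in FH, 0 fell and 3 did not pass, where 38.0% of all tested members and 23.5% of all genes were higher. They had a median log2 difference of 4.796 beside 0.69 for all tested members. Outside this count, by RefSeq hairpins, 2610307P16Rik (Mir6368) was called higher. Nlrc5 (Mir7072), which RefSeq lists as protein-coding, was called lower, with pooled log2 ratios of −2.59 by RiboMinus and −1.37 by Ribo-Zero. The libraries do not hold small RNAs, so the levels below are those of the host transcripts and the mature microRNAs were not measured. Values per preparation are given in the order CCE1 hydrolysed, CCE1 sheared, CCE2 hydrolysed, CCE2 sheared, then FH1 hydrolysed, FH1 sheared, FH2 hydrolysed.

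All 3 hosts of miR-9, a microRNA known for its role in neural progenitors and neuronal differentiation, rose in FH. C130071C03Rik (chr13:83861160-83880913, plus strand) measured 0.367, 0.392, 0.696 and 0.433 RPKM in CCE and 43.2, 17.05 and 42.8 RPKM in FH. The lowest FH preparation was the sheared one and still lay far above the highest CCE preparation. The means were 0.472 ± 0.152 (SD, n = 4) and 34.35 ± 14.98 (SD, n = 3), and the fitted log2 difference was 6.00 ± 0.52 (SE; adjusted p = 6.69e-06, limma). In the Ribo-Zero libraries the gene measured 0.6 and 25.9 RPKM, a ratio of 43.2 (95% counting interval 33.01 to 57.5).

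AI854517, which RefSeq names Mir9-3hg (chr7:86645003-86679283, plus strand), measured 0.195, 0.174, 0 and 0 RPKM in CCE and 7.98, 10.5 and 8.84 in FH. Its log2 difference was 6.5 ± 0.55 (limma adjusted p = 6.11e-06) and its Ribo-Zero ratio 31.4 (16.95 to 65.85). Gm3764 (chr3:88018407-88025782, plus strand), with Mir9-1 in its intron, measured 0, 0, 0 and 0.34 RPKM in CCE and 11.6, 20.0 and 14.7 in FH. For both hosts the tissues did not overlap, and the CCE values rested on 5 tags and 1 tag. The fitted difference of Gm3764 was 6.30 ± 0.52 (limma adjusted p = 5.14e-06). Its Ribo-Zero ratio was 179 (61.0 to 869).

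AW047730 (chr3:88004545-88007403) ends 11003 bases before Gm3764 starts, on the same strand, and followed the same tissue pattern. It measured 0.0971, 0, 0 and 0 RPKM in CCE and 6.58, 8.83 and 6.46 in FH. With 1 CCE tag against 178 FH tags the pooled ratio was 234 (counting interval 41.5 to 9295), and the fitted log2 difference was 6.49 ± 0.43 (limma adjusted p = 1.65e-06). Ribo-Zero gave 0 tags in CCE and 346 in FH, at least 53.17-fold higher in FH by the exact interval. Whether the 2 annotated genes form one transcript was not tested.

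A930011O12Rik (chr14:65206952-65212796), named Mir124a-1hg in RefSeq after miR-124, the most familiar neuronal microRNA, measured 0.433, 0.33, 0.586 and 0.274 RPKM in CCE and 30.8, 20.0 and 33.7 in FH. Here too the sheared FH preparation was the lowest of the FH values. The means were 0.406 ± 0.137 (SD, n = 4) and 28.1 ± 7.21 (SD, n = 3), with a log2 difference of 5.99 ± 0.37 (limma adjusted p = 1.18e-06). The Ribo-Zero ratio was 32.9.

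4631405K08Rik, named Mir205hg in RefSeq (chr1:195333432-195335997), hosts miR-205, a microRNA known from epithelia rather than neurons. It measured 0.144, 0, 0.171 and 0 RPKM in CCE and 10.4, 6.69 and 8.90 in FH, a log2 difference of 5.84 ± 0.46 (limma adjusted p = 3.86e-06). Ribo-Zero gave a smaller ratio of 10.9 (6.39 to 20.2). The miR-344 host A330076H08Rik rose from 0.113 ± 0.043 (SD, n = 4) to 1.90 ± 0.334 RPKM (SD, n = 3), a log2 difference of 3.75 (limma adjusted p = 2.15e-05). The miR-29b and miR-29c host A330023F24Rik rose from 0.152 ± 0.081 to 0.483 ± 0.177 RPKM, a log2 difference of 1.78 ± 0.52 (limma adjusted p = 0.0149). This last call was lost without the FH2 hydrolysed preparation (adjusted p = 0.0677).

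Dleu2, the host of miR-16-1, did not pass, at 2.18 RPKM in CCE and 3.59 in FH (log2 difference 0.80 ± 0.40, limma adjusted p = 0.118), although it did with median-of-ratios scaling (1.04, limma adjusted p = 0.0373) and with hydrolysed preparations alone (0.53, limma adjusted p = 0.0172) or both fragmentations summed per RNA (0.75, limma adjusted p = 0.000576). The hydrolysed and summed fits called 70.6% and 68.28% of all genes, against 50.05% in the main fit. Ttc28, which RefSeq lists as protein-coding and whose intron holds Mir701, held 1149 and 1100 tags (log2 difference 0.42, limma adjusted p = 0.370).

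**Figure D2:**
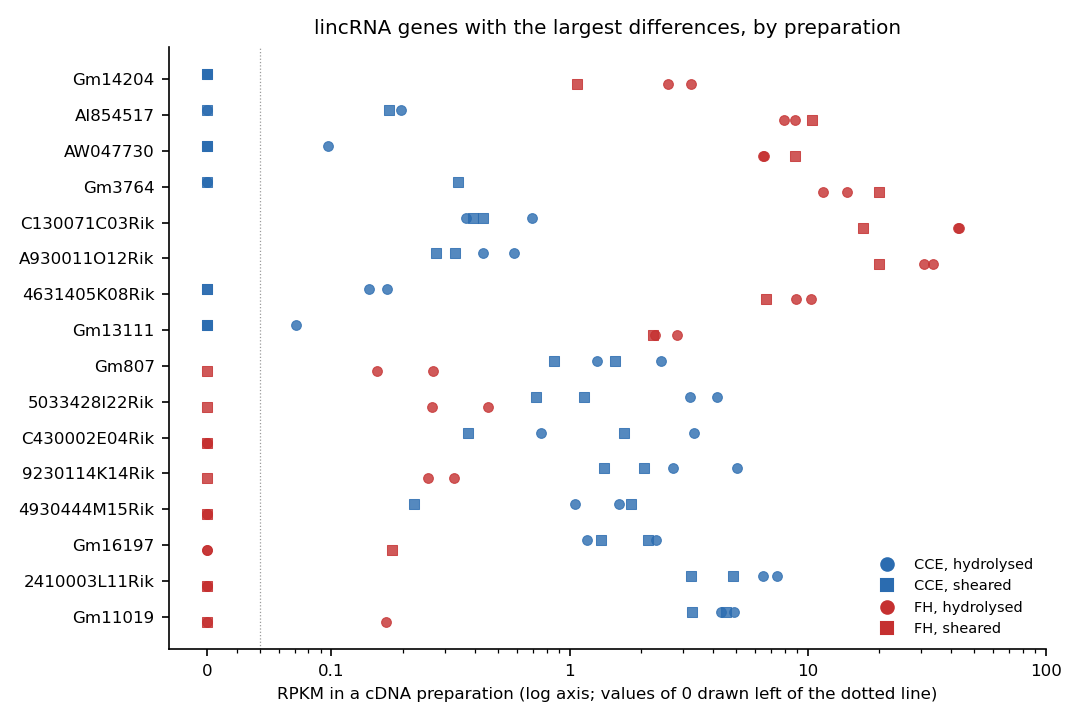
RPKM of the 8 lincRNA genes with the largest called differences in each direction among those whose tissues do not overlap, in each of the 7 RiboMinus preparations. The horizontal axis is RPKM on a log axis, with values of 0 drawn left of the dotted line; circles are hydrolysed and squares sheared preparations, CCE in blue and FH in red. The lack of overlap is how the genes were chosen, and most hold no tag in at least 1 preparation of the lower tissue.

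Gm14204 and Gm13111 completed the 8 largest rises. The first (chr2:158421208-158436459, minus strand) had no tag in any CCE preparation and 3.24, 1.07 and 2.59 RPKM in FH. By the exact interval it was at least 66.0-fold higher in FH. Ribo-Zero gave 0 and 503 tags, at least 77.43-fold higher. Its head to head partner Slc32a1, the vesicular GABA transporter of inhibitory neurons, had a log2 difference of 7.28 (limma adjusted p = 1.57e-05), beside a fitted 6.75 ± 0.59 for Gm14204 (7.5e-06), a value that depends on the constant added to 0 tags. Gm13111 (chr4:154011685-154018825, plus strand), Prdm16os in RefSeq, measured 0.0709, 0, 0 and 0 RPKM in CCE and 2.29, 2.25 and 2.81 in FH. Its log2 difference was 5.45 ± 0.43 (limma adjusted p = 4.06e-06), and Prdm16, a transcription factor gene that starts 703 bases away, rose by 2.94.

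Fewer lincRNA genes fell in FH than rose. Gm11019 (chr13:98204925-98266960), Lncenc1 in RefSeq and known from naive embryonic stem cells, measured 4.32, 4.55, 4.91 and 3.26 RPKM in CCE and 0, 0 and 0.17 in FH. With 153 tags against 2, the fitted difference was −5.41 ± 0.54 (limma adjusted p = 1.63e-05). Only 86.6% of its exon positions are unique in the genome. The Ribo-Zero level was 16.8 RPKM in CCE and 0.222 in FH, 75.5-fold higher in CCE.

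2410003L11Rik (chr11:97459825-97484207) measured 7.45, 3.22, 6.49 and 4.85 RPKM in CCE and had no tag in FH. By the exact interval it was at least 17.15-fold higher in CCE. Ribo-Zero gave 127 tags and 0, at least 59.53-fold higher in CCE. Gm16197 (chr17:29194419-29215906), Trp53cor1 in RefSeq and known as lincRNA-p21, measured 1.19, 1.36, 2.31 and 2.13 RPKM in CCE and 0, 0.179 and 0 in FH. Its difference was −4.45 ± 0.67 (limma adjusted p = 0.0003). The Ribo-Zero ratio of 5.78 (3.72 to 9.26) was well under the 50.2 of the RiboMinus pools, which rests on 1 FH tag (8.70 to 2012). Cdkn1a, the p21 cell cycle inhibitor that starts 12018 bases away in the opposite direction, fell from 144 to 8.25 RPKM (log2 difference −4.11, limma adjusted p = 4.37e-07).

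C430002E04Rik, Platr4 in RefSeq and so named for association with pluripotency, measured 0.762, 1.70, 3.31 and 0.375 RPKM in CCE and had no tag in FH. It just met the minimum of 20 tags for the test, with all 20 in CCE. By the exact intervals it was at least 3.755-fold higher in CCE by RiboMinus and at least 45.74-fold higher by Ribo-Zero. 4930444M15Rik measured 1.06, 1.82, 1.61 and 0.223 RPKM in CCE. Its 26 RiboMinus tags were all in CCE, at least 4.989-fold higher in CCE by the exact interval. Its Ribo-Zero ratio of 15.8 (2.19 to 692) rested on 1 FH tag. In both genes the CCE2 sheared preparation was the lowest of the CCE values.

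5033428I22Rik (Hdnr in RefSeq) lies 7601 bases downstream of Hand2, which encodes a transcription factor of heart and limb. It measured 4.17, 1.15, 3.20 and 0.725 RPKM in CCE and 0.264, 0 and 0.454 in FH, a difference of −2.77 ± 0.80 (limma adjusted p = 0.0141), and Hand2 fell by 3.65. Without the FH1 hydrolysed preparation the difference of 5033428I22Rik was −2.83, with a limma adjusted p of 0.0503. Gm807 fell by 2.73 ± 0.55 (limma adjusted p = 0.00193) whereas its nearest coding gene Zfp366 rose by 4.28. 9230114K14Rik, which lies 162 bases head to head from Dhx15, fell by 3.35 ± 0.65 (limma adjusted p = 0.00144) with a Ribo-Zero ratio of only 1.72, and Dhx15, an RNA helicase gene, had a difference of −0.55 (adjusted p = 0.216).

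Of the 5 most abundant members of each tissue, 2410006H16Rik, Tug1 and 1810058I24Rik did not pass the test, and the others differed between the tissues. 2410006H16Rik, a short gene with 3 snoRNAs in its span, was the highest in CCE at 72.1, 92.8, 68.2 and 44.8 RPKM and measured 67.0, 44.7 and 79.6 in FH. The ranges overlapped and the log2 difference was −0.08 ± 0.29 (limma adjusted p = 0.835), with a sign that turned to 0.17 under median-of-ratios scaling. Ribo-Zero gave 53.3 and 17.7 RPKM, 3.0-fold higher in CCE. Tug1, a conserved and widely expressed lincRNA, measured 14, 12.5, 15.8 and 7.76 RPKM in CCE and 19.4, 7.22 and 18.6 in FH, with a log2 difference of 0.21 ± 0.36 (limma adjusted p = 0.659), and with hydrolysed preparations alone it was higher in FH (0.35, limma adjusted p = 0.00365), as with both fragmentations summed per RNA (0.395, limma adjusted p = 0.0126). These alternative fits called 70.6% and 68.28% of all genes, against 50.05% in the main fit. In both tissues a sheared preparation of Tug1 was the lowest. 1810058I24Rik measured 20.2 ± 3.16 (SD, n = 4) and 14.5 ± 3.68 RPKM (SD, n = 3) and did not pass (log2 difference −0.47, limma adjusted p = 0.124), but with the preparation as a block it was lower in FH (−0.47, limma adjusted p = 0.0126), as it was with both fragmentations summed per RNA (−0.41, limma adjusted p = 0.0126). The block and summed fits called 66.74% and 68.28% of all genes. The Ribo-Zero levels of 1810058I24Rik were 7.24 and 2.22 RPKM, 3.26-fold higher in CCE (2.82 to 3.78).

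Gm17446 was the highest in FH. It measured 5.99, 5.98, 6.25 and 5.15 RPKM in CCE and 106.7, 90.4 and 113 in FH (log2 difference 4.13 ± 0.19, limma adjusted p = 3.83e-07). Of its 3805 exon bases, 3801 are also exon bases of Kctd12 on the opposite strand, which the annotation types as a pseudogene and which is known as a gene for an auxiliary GABA-B receptor subunit, and without strand the reads of the 2 genes cannot be told apart. The same holds for Gm17639, whose 1228 exon bases all lie within Meg3, an imprinted non-coding gene. Gm17639 measured 22.5 ± 2.97 (SD, n = 4) and 38.5 ± 4.57 RPKM (SD, n = 3), a difference of 0.77 ± 0.20 (limma adjusted p = 0.00858). In the Nijmegen libraries alone the difference was 0.912 and did not pass (limma adjusted p = 0.0563). Its Ribo-Zero ratio was 1.108 (0.9737 to 1.262), against 1.688 by RiboMinus. Over all members, 44 share exon bases with another gene. Among the 132 tested members that share none, 48 were higher and 14 lower. Over all 150 tested members 57 (38.0%) were higher and 16 (10.7%) lower, and over all genes tested the shares were 23.5% and 26.6%.

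Members of gene lists of known lincRNAs, chosen with earlier results of these data known, were counted next, with RefSeq names used to find them. Of 7 members on the neural list, 6 were tested, 5 rose and 0 fell, where 38.0% of all tested members and 23.5% of all genes were higher. The 5 include the microRNA hosts C130071C03Rik, A930011O12Rik and A330023F24Rik, already counted above. 1500016L03Rik, also among the 5 and with only 2 CCE and 19 FH tags, is counted again below beside Lhx1. The gene that did not pass was 1700020I14Rik, which had 5.73 RPKM in CCE and 5.39 in FH (log2 difference −0.06, limma adjusted p = 0.904, and 0.19 under median-of-ratios scaling). 2810011L19Rik, Tunar in RefSeq and known from neural differentiation, rose by 2.80 (limma adjusted p = 0.00166). Of the 4 broadly expressed lincRNA genes tested, 0 rose and 1 fell, where 10.7% of all tested members and 26.6% of all genes were lower. This was Pvt1, at 2.10, 1.80, 2.97 and 1.45 RPKM in CCE and 0.866, 0.284 and 0.703 in FH, without overlap (log2 difference −1.68 ± 0.41, limma adjusted p = 0.00557), while its neighbour Myc had a difference of −0.19 (adjusted p = 0.713). Gm11974, Snhg15 in RefSeq, also fell, from 12.9 ± 3.94 to 4.07 ± 1.18 RPKM (log2 difference −1.56 ± 0.34, limma adjusted p = 0.00298), and 133 of its exon bases are shared with a snoRNA gene. The single tested member of the imprinted list, A330076H08Rik, rose as given above. By name, 0 members were found for the embryonic stem cell list and 1, untested, for the Hox list. The embryonic stem cell list spells one gene Lincenc1, while Gm11019, which fell as given above, is Lncenc1 in RefSeq and was not matched.

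The position of lincRNA genes relative to coding genes was examined because many lay close to one. Of the 486, 274 were head to head with their nearest coding gene, at a median distance of 229.5 bases, and 201 of these lay within 1 kb. Of 65 members downstream of a coding gene on the same strand, 0 lay within 1 kb, and 2 of 75 did upstream. Among the 68 tested head to head members within 1 kb, 25 were higher in FH, 2 lower and 41 did not pass, so the higher share was near the 38.0% of all tested members (23.5% of all genes), beside 10.7% of members and 26.6% of all genes lower. Among the 82 tested members in other positions the counts were 32, 14 and 36. Over 5 kb from any coding gene, 26 of 57 tested members were higher and 9 lower. The difference between these positions was not tested.

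Changes in lincRNA genes were then compared with those in their nearest coding genes. Over 141 pairs with both genes tested, the log2 differences correlated with r = 0.466 (Spearman rho = 0.362) across genes, which share the same preparations and are not independent replicates. In 42 pairs both genes were called, and 33 (78.6%, 95% exact binomial interval 63.2 to 89.7) had the same direction, 26 higher and 7 lower in FH. In these 42 pairs 32 lincRNA and 29 coding genes were higher, and such margins alone would give the same direction in 59.98% of pairs. The correlation was 0.618 over the 68 head to head pairs within 1 kb (rho = 0.384) and 0.388 over the other 73 (rho = 0.327). The same direction was found in 16 of 20 called head to head pairs (interval 56.3 to 94.3), where the margins alone would give 72.5%, inside the interval. Among the other 22 it was found in 17 (interval 54.6 to 92.2), where the margins would give 52.5%. With the nearest start site in place of the nearest gene, 31 of 43 pairs shared a direction (72.1%, interval 56.3 to 84.7), and the 59.65% from the margins lay inside the interval. The intervals treat pairs as independent and cover counting error only.

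Of the 15 head to head pairs within 1 kb that rose together, some are described here, chosen after their values were seen. For the pairs printed above, Pcdh10, a protocadherin, rose by 6.07 and 2610316D01Rik by 3.83 (from 0.272, 0, 0.322 and 0 RPKM in CCE to 3.80, 2.87 and 5.02 in FH). Negr1, a neuronal adhesion molecule, rose by 6.53 and 4930570G19Rik by 3.54 (from 0.24, 0.08, 0 and 0 RPKM to 1.16, 0.761 and 0.942). In neither pair did the tissues overlap for the lincRNA gene.

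Acan, the cartilage proteoglycan aggrecan, rose by 7.65. Gm16936 beside it had no CCE tag and 1.07, 0.488 and 0.71 RPKM in FH, 11.4-fold higher in FH with 3 tags put in place of 0. C130021I20Rik (from 0.154 ± 0.081 to 6.55 ± 1.28 RPKM) rose by 5.17 beside Lmx1b, a transcription factor gene that rose by 3.04, and the annotated lincRNA gene that bears the symbol Snord123 of a snoRNA rose by 2.50 beside Sema5a, an axon guidance gene that rose by 4.41.

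In 4 head to head pairs within 1 kb the genes moved apart. Gm10069 rose by 3.11 while Fkbp4, a co-chaperone gene 80 bases away, fell by 1.496 from 362 to 129 RPKM, but by Ribo-Zero Gm10069 had a ratio of 0.845. E030042O20Rik rose by 2.05 while Nfe2l2, a regulator of the oxidative stress response, fell by 2.23, but by Ribo-Zero E030042O20Rik had a ratio of only 1.24. D330023K18Rik rose by 1.71, with a Ribo-Zero ratio of 3.17, while Gpr107 fell by 0.56. Ppp4r1l-ps rose by 0.75, with a Ribo-Zero ratio of 1.33, while Rab22a fell by 0.94, and the call of Ppp4r1l-ps was lost on leaving out any of 4 single preparations in turn (adjusted p from 0.0539 to 0.092). 2500002B13Rik and Sap30, a gene of a histone deacetylase complex, fell together by 2.28 and 1.69, but the call of 2500002B13Rik was lost without the FH2 hydrolysed preparation (adjusted p = 0.0969).

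Next to genes of a list of developmental transcription factor families (Sox, Lhx, Hox, Pax, Zic and others, without Hand2, Lmx1b or Prdm16) lay 15 members, of which 6 were tested, 3 rose and 0 fell, with 38.0% of all tested members and 23.5% of all genes higher. 1500016L03Rik (Lhx1os in RefSeq), with 2 CCE and 19 FH tags, rose by 3.07 ± 0.57 and Lhx1 by 4.43. Emx2os rose by 1.87 ± 0.53 and Emx2, a gene of forebrain patterning, by 1.79, although the call of Emx2os was lost without either FH1 hydrolysed (adjusted p = 0.0586) or FH2 hydrolysed (0.0544). 2610307P16Rik rose by 2.17, whereas Sox4, 63299 bases away, had a difference of −0.70 (limma adjusted p = 0.136). 2810468N07Rik, head to head with Sox8 at 230 bases, had a difference of 0.64 (limma adjusted p = 0.202) beside 4.86 for Sox8. BC006965, head to head with Sox9, was too rare to test by RiboMinus (1 and 12 tags) and held 1 and 123 tags by Ribo-Zero.

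**Figure D3:**
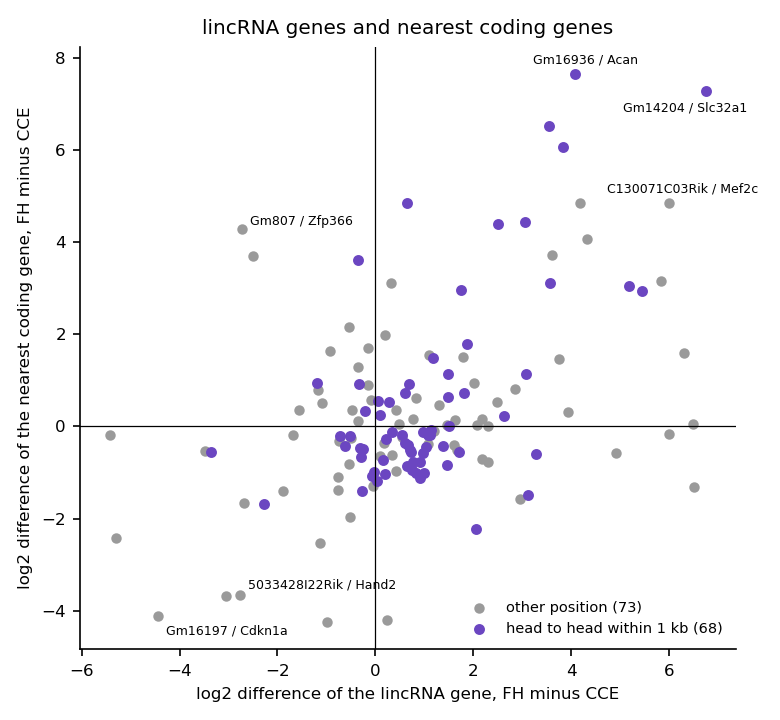
Log2 differences, FH minus CCE, of 141 lincRNA genes (horizontal axis) and of their nearest coding genes (vertical axis), both from the limma voom fit. Each point is a pair, in purple where the genes lie head to head within 1 kb (68 pairs) and in grey otherwise (73 pairs). Points of both colours reach high values on both axes, Gm14204 with Slc32a1 the farthest. Gm807 with Zfp366 lies at the upper left (−2.73 and 4.28), where the lincRNA gene fell and the coding gene rose.

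Intron tags were examined because ribo-depleted RNA holds unspliced transcripts. Tag density in exons over that in introns had a median of 5.36 over 70 lincRNA genes in the CCE RiboMinus pool (quartiles 3.05 and 12.5) and 3.51 over 82 in FH (2.11 and 8.57). Coding genes had 22.9 and 12.6, and coding genes between the level quartiles of these lincRNA genes had 13.3 (2500 genes) and 8.81 (4626 genes). Ribo-Zero gave 3.09 and 2.30 for lincRNA genes and 16.6 and 8.08 for coding genes. Coding genes between the level quartiles had 10.0 (1910 genes) and 5.58 (3023 genes) by Ribo-Zero. The lower ratio was thus seen in both tissues and in both sets of libraries, which differ in location and read length as well as in depletion. No test was made across genes.

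Single genes departed widely from these medians. Gm11019 had 23.8-fold more tags per exon base than per intron base in CCE, and C130071C03Rik 7.05-fold in FH. A ratio below 1, more tags per intron base than per exon base, was found for 5 members in CCE and 6 in FH. Tug1 was one of these in both tissues, at 0.542 and 0.564, and 2810410L24Rik another, at 0.386 and 0.403. By Ribo-Zero the ratio of Tug1 was closer to 1, at 0.926 in CCE and 0.965 in FH.

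**Figure D4:**
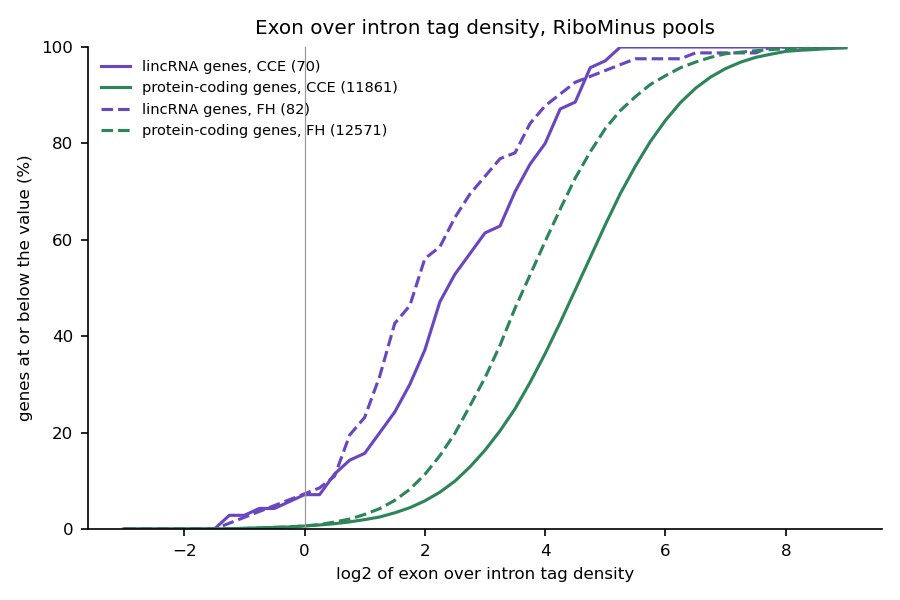
Cumulative share of genes (vertical axis, %) by the log2 of exon over intron tag density (horizontal axis) in the pooled RiboMinus libraries, for lincRNA and protein-coding genes of each tissue. The lincRNA curves lie left of the coding curves, with medians of 5.36 and 3.51 against 22.9 and 12.6.

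The tissue ratios were then measured again in the Ribo-Zero libraries, which share no sample with the RiboMinus preparations. They were sequenced at another location (Vienna-CeMM) with longer reads, so depletion cannot be told apart from location or read length. Over 149 lincRNA genes with at least 20 tags by each method the log2 ratios correlated with r = 0.893 (rho = 0.822) across genes, which share the libraries. Of 72 genes called by RiboMinus, 65 (90.3%, 95% exact binomial interval 81.0 to 96.0) had the same direction by Ribo-Zero, 50 of 57 higher and 15 of 15 lower. With 1 library per tissue this has no replicate check. The median log2 ratio over the 149 genes was 0.75 by RiboMinus and 0.28 by Ribo-Zero, and over 14388 coding genes −0.21 and −0.51. The 7 genes with an opposite sign were Gm11818, 4933421O10Rik, Gm10069, 4932415G12Rik, C030037D09Rik, 2810410L24Rik and Gm9918, with linear Ribo-Zero ratios between 0.57 and 0.917. Under median-of-ratios scaling 69 of 72 shared the direction.

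**Figure D5:**
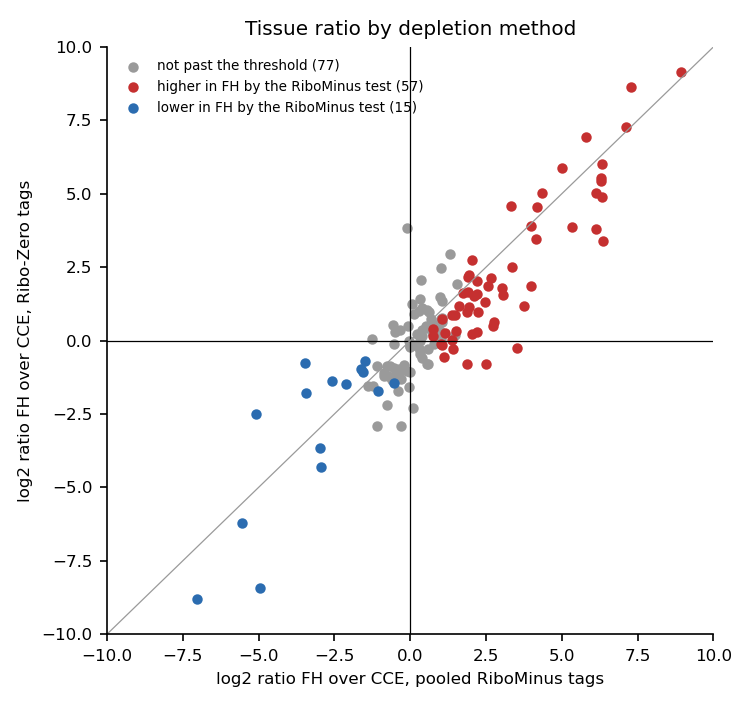
Log2 ratio of FH over CCE by pooled RiboMinus tags (horizontal axis) and by Ribo-Zero tags (vertical axis) for 149 lincRNA genes, with 0.5 tag added to each count, each point a gene and its colour the RiboMinus call. Points follow the diagonal, and the 7 called genes of opposite sign lie between −0.81 and −0.13 by Ribo-Zero.

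The fragmentation methods were compared within CCE. Both sheared preparations lay above both hydrolysed ones in 12 of the 150 tested members (8.0%, against 24.4% of all genes tested). They lay below in 56 (37.3%), a share close to the 35.7% of all genes. Fitting fragmentation as a covariate kept all 73 calls, in a fit that called 67.78% of all genes (50.05% in the main fit).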

How the data were processed

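The authors depleted total RNA of ribosomal RNA, sequenced it on Illumina machines and deposited uniquely aligned tags as BED lines, with Bowtie and mm9 named in the submitters' processing notes (version not given in the sources used here). Each line of the deposited files holds the start, end and strand of 1 tag and a score that is the same in every line and was not used. Of 24 samples, 16 libraries were analysed and 8 (further lanes and combined sets) were not used here.

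For each library, midpoints of tags were counted in merged GENCODE M1 exons without strand, and RPKM was computed from all tags outside the mitochondrial chromosome. The lanes of one cDNA were summed to 7 preparations of 1888761 to 4322418 tags. Tags of all genes with at least 20 were fitted with limma voom 3.58.1 (R 4.3.3), two-sided, with Benjamini-Hochberg adjustment and a threshold of 0.05, and a script for this was tested on simulated data. An exact 95% interval was used for ratios and shares. A ratio against 0 tags is given as the lower limit of this interval, or with 3 tags in place of 0 where stated. Levels at 0 tags are bounded with 3 tags. Preparations of the same name in both tissues deviated together over 7323 coding genes (r = 0.702, 0.51 and 0.723), which share fragmentation as well as a number, so the name was also fitted as a block. Between locations the numbers matched for sheared CCE preparations (r = 0.641) and ran opposite for hydrolysed ones (r = −0.644 in CCE and −0.496 in FH), so a fit with crossed numbers was added to the alternatives. Other alternatives changed the scaling, the filter, the scale, the location, the fragmentation and the preparations included. The genes described are the 8 largest called differences without overlap in each direction, the 5 highest in each tissue, the called annotated microRNA hosts (at most 8) and the tested members of lists of known lincRNA genes found by annotated symbol, 27 in all. Tested list members found only by RefSeq name (1500016L03Rik, 2810011L19Rik and 2410004N09Rik) are not among the 27. Further genes beside coding genes were chosen after their values were seen. Members and lists were chosen with earlier results of these data known.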

Additional observations from a re-analysis of the deposited data

Results flagged for a closer look

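In 3 lincRNA genes 1 of the 4 CCE preparations stood apart from the other three, which held no tag. AW047730 had 0.0971 RPKM in CCE1 hydrolysed, Gm13111 had 0.0709 RPKM in CCE1 hydrolysed and Gm3764 had 0.34 RPKM in CCE2 sheared (0.3398 before rounding). Each value is 1 tag, and any gene with a single tag over the 4 preparations must give this pattern, so nothing follows from it.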

How the results depend on the processing

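The main counts were 57 lincRNA genes higher and 16 lower in FH, and none of the 73 calls took the opposite sign under any alternative fit. With the preparation as a replicate block, 63 were higher and 19 lower, in a fit that called 66.74% of all genes (50.05% in the main fit). In it 72 of the 73 calls held and D930016D06Rik was lost (adjusted p = 0.0503, limma). Leaving out 1 preparation gave 40 to 57 higher and 11 to 14 lower; without FH2 hydrolysed 14 calls were lost and 8 genes fell under the filter. Without a filter on tags 85 were higher and 25 lower (408 tested), beside 4418 and 4124 of all 21657 genes then tested. Fitting log2(RPKM + 1) at a mean RPKM over 3 gave 27 higher and 5 lower of 47 tested. Vienna-IMP alone gave 10 lower, Nijmegen alone 34 higher and 9 lower, and members over 5 kb from coding genes 26 and 9; these test fewer tags or genes. Crossed numbers kept 71 calls. Detected members fell from 135 to 65 (RPKM over 1, also on unique positions) and 22 (RPKM over 3) in CCE, and from 144 to 94 and 44 in FH. Exon over intron density as summed tags over summed lengths was 11.58 in CCE and 9.295 in FH (coding genes 48.2 and 21.4). The sign of 3 genes that did not pass turned: 2410006H16Rik (0.167 by median-of-ratios scaling, 0.015 in Vienna-IMP, 0.063 in hydrolysed preparations, −0.266 to 0.113 leaving out 1 preparation), Tug1 (−0.028 to 0.638 leaving out 1) and 1700020I14Rik (0.19 by median-of-ratios scaling, 0.002 over 14 libraries, 0.373 in Nijmegen, −0.26 to 0.224 leaving out 1). The causes were not tested. Choices made after seeing the data, dropping members that share exon bases or that RefSeq lists as protein-coding, gave 48 and 14 of 132 and 54 and 15 of 143, and summing both fragmentations per RNA gave 68 and 23 of 150.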

Other observations

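Members whose RefSeq name starts with Platr, given to transcripts associated with pluripotency, were gathered after their values were seen. There were 6, and only C430002E04Rik (Platr4) had enough RiboMinus tags to test, 20 in CCE and 0 in FH. By Ribo-Zero, 4930500J02Rik (Platr14) held 251 tags in CCE and 26 in FH, C330046G13Rik (Platr7) 25 and 0, and Gm16880 (Platr22) 22 and 0, whereas Gm13939 (Platr8) held 17 and 50, and Gm17580 (Platr30) had no tag in any library. The CCE library held fewer tags in all than the FH library.

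Other genes that share exon bases gave values that cannot be assigned to one of the pair. Gm17341, of whose 1957 exon bases 1955 lie within Rmst, a non-coding gene of neural progenitors, rose from 0.047 to 3.01 RPKM (log2 difference 4.92, limma adjusted p = 3.3e-05).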
